A study of Rattus norvegicus with 12 samples.

Results

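Circulating rno-miR-652-3p, rno-miR-339-5p, rno-miR-185-5p and rno-miR-185-3p were examined in rat serum after single oral doses of caffeine, dextromethorphan or both. The 4 microRNAs, of 752 mature names in the deposited table, were chosen by their FPKM values against Control, as blood-cell microRNAs that were lower in at least one treated group. The choice gave no minimum size for that difference. Those values are therefore given below as a description with no test. The rats were 7-week-old male Sprague-Dawley animals, and the design names 5 rats per group; 12 libraries, 3 per group, were analysed here. CAF rats were dosed with caffeine at 180 mg/kg. DEX rats were dosed with the antitussive dextromethorphan hydrobromide monohydrate at 200 mg/kg. CAF+DEX rats were given both at these doses, dextromethorphan 1 h after caffeine, and Control rats were given sterile distilled water alone. Blood was taken 1 h after dextromethorphan; no transgene or deletion is named for any group. Nothing in the labels ties a library to a separate rat, so p-values measure the spread between libraries, which may be technical.

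A microRNA gene is transcribed as a hairpin, and Dicer cuts out a duplex whose strands come from the 5p and 3p arms. One strand is usually kept by an Argonaute protein and the other is mostly degraded, and the kept strand recognises messenger RNAs through its seed, bases 2 to 8 from the 5′ end. In serum, microRNAs are found in vesicles and in protein complexes released by blood cells, platelets, endothelium and solid organs. miR-185 is known in human cells as a repressor of genes of lipid synthesis, and its human gene lies in the interval lost in DiGeorge syndrome. miR-339-5p has been reported in human cells to repress the beta-secretase that cleaves the amyloid precursor protein, and miR-652-3p is among the microRNAs detected in human platelets. Neither the cell of origin nor the carrier was measured here.

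The mature sequences are shown because they define which RNA was counted and whether other microRNAs share a seed. They are RefSeq sequences of the rat build GRCr8, matched by name, 5′ to 3′, with the seed in capitals.
miR-652-3p: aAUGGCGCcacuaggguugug
miR-339-5p: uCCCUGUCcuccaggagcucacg
miR-185-5p: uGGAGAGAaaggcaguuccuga
miR-185-3p: uUUCCUCUgguccuucucu
miR-652-5p, opposite arm: aCAACCCUaggagggggugccau
miR-339-3p, opposite arm: uGAGCGCCucgacgacagagcca
The 6 seeds all differ, and none of them was found in another of the 693 mature names in that RefSeq table, nor were their bases 2 to 7. The 4 microRNAs are thus no seed family. miR-185-3p is the shortest at 19 bases, against 21 for miR-652-3p, 22 for miR-185-5p and 23 for miR-339-5p; the median of the 366 tested microRNAs is 22. GC content is 65.2% in miR-339-5p, 57.1% in miR-652-3p and 47.4% in miR-185-3p, and that of miR-185-5p equals the median of the 338 tested microRNAs with a RefSeq sequence.

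The hairpins are shown because both arms of each were counted. Both mature arms are in capitals, the 5p arm first.
Mir652: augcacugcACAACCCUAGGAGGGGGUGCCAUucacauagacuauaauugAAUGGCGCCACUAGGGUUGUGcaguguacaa
Mir339: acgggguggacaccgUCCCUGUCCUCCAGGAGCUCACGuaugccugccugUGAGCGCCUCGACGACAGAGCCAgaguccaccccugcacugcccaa
Mir185: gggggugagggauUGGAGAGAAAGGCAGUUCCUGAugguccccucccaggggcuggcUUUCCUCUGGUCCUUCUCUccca
In the coordinates of the deposited table (the submitters' processing notes name build rn6), miR-652-3p lies on chromosome X from 114002584 to 114002604 and miR-339-5p on chromosome 12 from 17369017 to 17369039. miR-185-5p and miR-185-3p lie on chromosome 11 from 86812715 to 86812736 and from 86812759 to 86812777. All are on the plus strand, and each was listed at 1 locus. In the RefSeq annotation of GRCr8 the hairpins fall within the spans of the protein-coding genes Tmem164 (Mir652), C12h7orf50 (Mir339) and Tango2 (Mir185); exon and strand relations to these genes were not analysed here. No other listed microRNA lay within 50 kb of Mir652 or Mir339, and miR-1306-5p and miR-1306-3p lay within 50 kb of Mir185.

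Values are FPKM per mature microRNA, relative to the reads assigned to all listed microRNAs, so a rise of an abundant microRNA lowers the others. Library totals recovered from the FPKM steps were 1504963 to 1842796 reads in CAF, 403913 to 895792 in DEX, 758290 to 1160717 in CAF+DEX and 1304868 to 2625593 in Control. The red-cell index, a log2 ratio that sets miR-451-5p over miR-23a-3p, was -7.09 to -6.39 in CAF, -6.46 to -5.12 in DEX, -6.42 to -5.66 in CAF+DEX and -7.79 to -7.09 in Control. miR-191a-5p, the most abundant microRNA, took 26.9% to 35.8% of reads in CAF, 20.5% to 27.4% in DEX, 19.2% to 31.2% in CAF+DEX and 33.9% to 39.3% in Control. Depth, index and this share therefore moved with the groups, and their part in the results below was not tested. DEX2 and DEX3 were the shallowest libraries and had the highest index, and values without them are given where the sign turned or the log2 fold change moved by more than 0.5.

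miR-339-5p was the most abundant of the 4, ranking 27 to 56 among all names in the 12 libraries. It had 143130, 111067 and 96849 FPKM in CAF (libraries CAF3, CAF4 and CAF5), 96902, 77338 and 93595 FPKM in DEX (DEX1, DEX2 and DEX3) and 64972, 46329 and 105251 FPKM in CAF+DEX (CAFDEX2, CAFDEX3 and CAFDEX6), against 235884, 209278 and 142921 FPKM in Control (ctrl1, ctrl3 and ctrl5). Every DEX and CAF+DEX library lay below every Control library, while CAF3 lay just above ctrl5. It took 0.269% ± 0.0545 of reads in CAF (SD, n = 3), 0.205% ± 0.0241 in DEX and 0.166% ± 0.0693 in CAF+DEX, against 0.451% ± 0.110 in Control. The log2 fold change of (FPKM + 40) against Control was -0.73 ± 0.30 in CAF (SE, n = 3 per group), -1.11 ± 0.30 in DEX and -1.49 ± 0.30 in CAF+DEX. These values rest on 789 to 12638 reads per library. In serum, fewer cells that release a microRNA and less RNA released per cell cannot be told apart.

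miR-652-3p had 3156, 1344 and 2033 FPKM in CAF3, CAF4 and CAF5, 1719, 1860 and 3183 FPKM in DEX1, DEX2 and DEX3, and 1054, 816 and 1641 FPKM in CAFDEX2, CAFDEX3 and CAFDEX6, against 5786, 3246 and 2846 FPKM in ctrl1, ctrl3 and ctrl5. The CAF+DEX libraries all lay below Control, whereas CAF3 and DEX3 exceeded ctrl5. The log2 fold change was -0.86 ± 0.41 in CAF (SE, n = 3 per group), -0.79 ± 0.41 in DEX and -1.71 ± 0.41 in CAF+DEX, each against Control. Between 13 and 255.67 reads per library stand behind it, as recovered in steps of 0.01 read.

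miR-185-5p, the abundant arm of its hairpin, had 32886, 20448 and 22109 FPKM in CAF3, CAF4 and CAF5, 31872, 26336 and 32748 FPKM in DEX1, DEX2 and DEX3, and 20244, 17144 and 19776 FPKM in CAFDEX2, CAFDEX3 and CAFDEX6, against 49812, 37585 and 22050 FPKM in ctrl1, ctrl3 and ctrl5. All CAF+DEX libraries lay below Control, but the margin to ctrl5 was small, and all DEX libraries lay above ctrl5. The log2 fold change against Control was -0.49 ± 0.30 in CAF (SE, n = 3 per group), -0.20 ± 0.30 in DEX and -0.86 ± 0.30 in CAF+DEX. The DEX value was 0.068 without ctrl1, so the lower DEX mean of this microRNA rested on that library. Reads numbered 257 to 2306 per library.

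miR-185-3p was the least abundant, with 729, 234 and 385 FPKM in CAF3, CAF4 and CAF5, 176, 237 and 521 FPKM in DEX1, DEX2 and DEX3, and 269.8, 83.3 and 181 FPKM in CAFDEX2, CAFDEX3 and CAFDEX6, against 1773, 641 and 444 FPKM in ctrl1, ctrl3 and ctrl5. Again only CAF+DEX lay wholly below Control. The log2 fold change was -0.91 ± 0.59 in CAF (SE, n = 3 per group), -1.38 ± 0.59 in DEX and -2.05 ± 0.59 in CAF+DEX, each against Control, and the DEX value was -1.96 without DEX2 and DEX3. Few reads stand behind these values, as it had 8.2 to 21.33 reads per library in CAF, 2 to 4 in DEX, 1.2 to 5.33 in CAF+DEX and 11 to 70.9 in Control. Summed over a group it had 8.29 reads per 1000000 in CAF (exact 95% Poisson interval 6.02 to 11.4), 5.16 in DEX (2.36 to 9.80) and 3.56 in CAF+DEX (1.86 to 6.65), against 18.9 in Control (15.6 to 22.7). The intervals cover counting error only, and ctrl1 alone gave 70.9 of the 113.9 Control reads. Without ctrl1 the Control value was 10.9 reads per 1000000 (7.92 to 14.7). That interval overlaps those of CAF and DEX, but not that of CAF+DEX.

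**Figure D1:**
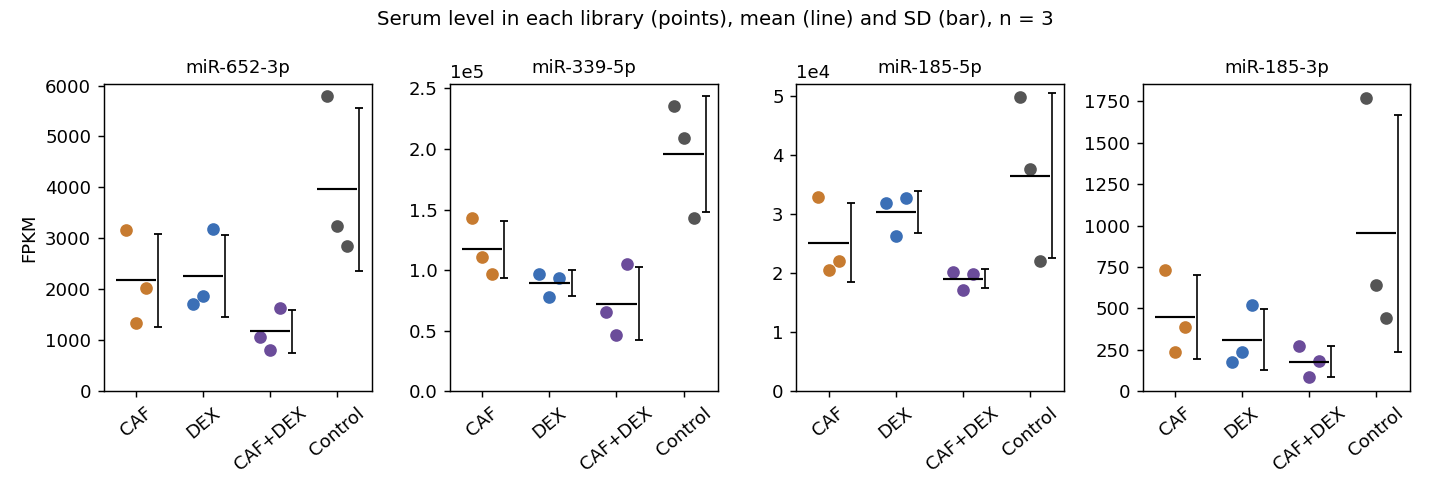
FPKM (y axis, linear, from 0) of the 4 microRNAs in each library of CAF, DEX, CAF+DEX and Control (x axis); points are libraries, lines are means and bars are SD (n = 3). In every panel all CAF+DEX points lie below all Control points, while CAF and DEX points overlap Control except for miR-339-5p in DEX.

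Counted over the 4 microRNAs, 4 had all CAF+DEX libraries below all Control libraries, 1 of 4 (miR-339-5p) had all DEX libraries below, and 0 of 4 had all CAF libraries below. Among all 366 tested microRNAs the same was seen for 15.8% in CAF+DEX, 7.1% in DEX and 6.56% in CAF. These are the values that the choice of the microRNAs used. Leaving a library out can only keep or raise such a count, so the counts below are no check of stability. The CAF+DEX count, which could not fall, was 4 with any 1 library of either group left out, where 16.1% to 24.0% of all tested microRNAs were wholly below Control. The DEX count was 3 without DEX3 (12.0% of all tested microRNAs under the same omission), 4 without ctrl5 (12.8%) and 3 without DEX2 and DEX3 together (23.2%). The CAF count was 3 without CAF3 (17.2%) and 3 without ctrl5 (18.6%). Ranked from the lowest log2 fold change against Control in CAF+DEX, miR-185-3p stood 4 of 366, miR-652-3p 8, miR-339-5p 12 and miR-185-5p 41. In DEX the places were 6, 32, 13 and 94 in the same order of microRNAs, and in CAF they were 15, 19, 25 and 54. All tested microRNAs together had a median log2 fold change against Control of 0.19 in CAF, 0.47 in DEX and 0.24 in CAF+DEX, so the bulk of microRNAs lay slightly above Control on this scale. With median-of-ratios scaling, under which that median was -0.04 in CAF, 0.11 in DEX and 0.08 in CAF+DEX, miR-339-5p was at -0.99 in CAF, -1.52 in DEX and -1.66 in CAF+DEX (log2). On the same scaling miR-652-3p was at -1.12, -1.19 and -1.88, miR-185-5p at -0.74, -0.61 and -1.03, and miR-185-3p at -1.15, -1.76 and -2.20 in CAF, DEX and CAF+DEX.

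**Figure D2:**
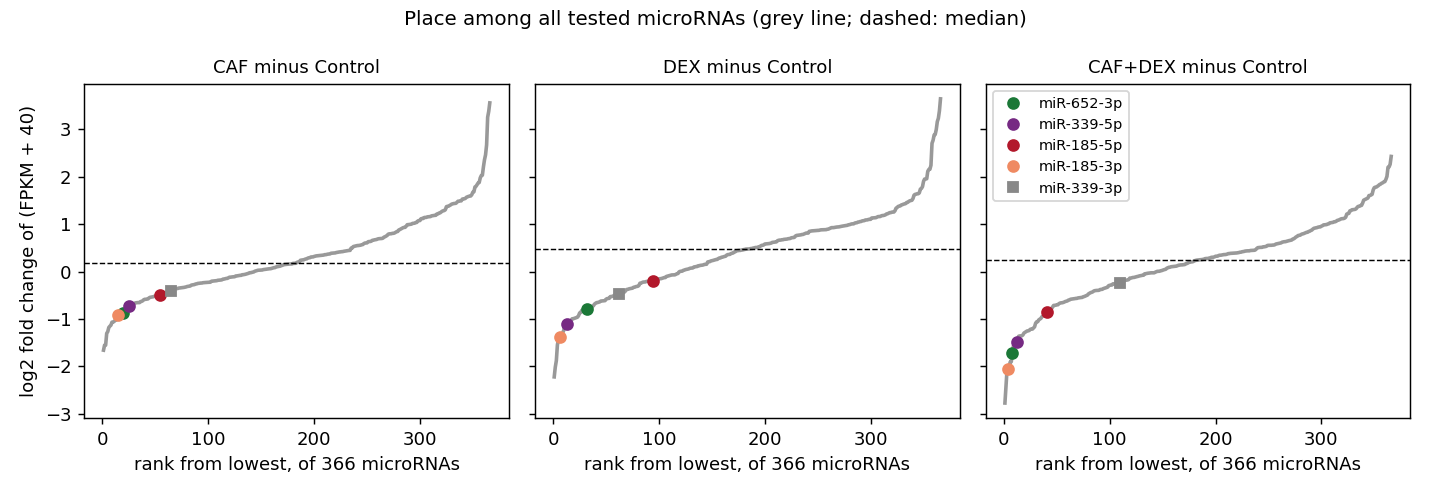
Log2 fold change of (FPKM + 40) against Control (y axis) of the 366 tested microRNAs ordered from lowest to highest (x axis, grey line) in CAF, DEX and CAF+DEX, with the 4 microRNAs and miR-339-3p marked and the median of all dashed. The 4 sit left of the middle in each panel, and miR-185-5p in DEX is the nearest of them to the median, at place 94.

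The opposite arms of 2 of the hairpins were not among the chosen microRNAs and could be set against Control. They were read in the libraries that the choice used. Whether they were passed over for their values is not known, so their results are not independent of the choice. miR-339-3p, the scarcer arm of Mir339, had 1596, 1604 and 1401 FPKM in CAF, 2039, 1764 and 861 FPKM in DEX and 1840, 1433 and 1948 FPKM in CAF+DEX, against 2407, 2335 and 1499 FPKM in Control. Libraries ctrl1 and ctrl3 were above every treated library, and ctrl5 lay among them. It did not pass in any of the 3 comparisons with limma (Benjamini-Hochberg adjustment over 366 microRNAs). The log2 fold change was -0.40 ± 0.36 in CAF (SE, adjusted p = 0.514, 95% interval -1.16 to 0.36), -0.47 ± 0.36 in DEX (adjusted p = 0.362, -1.23 to 0.29) and -0.23 ± 0.36 in CAF+DEX (adjusted p = 0.691, -0.99 to 0.53). Of the 3, 0 stood under 0.05 before adjustment, and voom on recovered reads passed 0. Of all tested microRNAs 7.92% passed in CAF, 12% in DEX and 10.9% in CAF+DEX, in either direction. The split into higher and lower calls was 25 and 4 in CAF, 42 and 2 in DEX and 24 and 16 in CAF+DEX. With median-of-ratios scaling that split was 12 and 7, 15 and 19, and 19 and 25. On this scaling miR-339-3p was at -0.65 in CAF, -0.87 in DEX and -0.40 in CAF+DEX (log2). There 1 of its 3 comparisons stood under 0.05 before adjustment, and the smallest adjusted p was 0.137 by limma. miR-652-5p had 2 reads in CAF, 1 in DEX, 2 in CAF+DEX and 5 in Control, summed over each group's libraries, and was below the level needed for a test.

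The ratio of the arms within a library does not depend on how that library is scaled. For Mir339 the FPKM ratio of 5p to 3p was 89.7, 69.2 and 69.1 in CAF3, CAF4 and CAF5, 47.5, 43.8 and 108.7 in DEX1, DEX2 and DEX3, and 35.3, 32.3 and 54.0 in CAFDEX2, CAFDEX3 and CAFDEX6, against 98.0, 89.6 and 95.3 in ctrl1, ctrl3 and ctrl5. The 3 Control values lay close together, all CAF+DEX values lay below them, and DEX3, with 8 reads of miR-339-3p, lay above them. The log2 of these ratios averaged 6.24 ± 0.22 in CAF (SD, n = 3), 5.93 ± 0.72 in DEX and 5.30 ± 0.40 in CAF+DEX, against 6.56 ± 0.07 in Control. This ratio holds miR-339-5p, which was chosen for its level, and has no test.

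For Mir185, whose arms were both chosen, the ratio of 5p to 3p was 45.1, 87.3 and 57.5 in CAF3, CAF4 and CAF5, 180.8, 111.0 and 62.8 in DEX1, DEX2 and DEX3, and 75.0, 205.8 and 109.0 in CAFDEX2, CAFDEX3 and CAFDEX6, against 28.1, 58.6 and 49.7 in ctrl1, ctrl3 and ctrl5. The DEX and CAF+DEX libraries all lay above the Control libraries. The log2 of these ratios averaged 5.93 ± 0.48 in CAF (SD, n = 3), 6.76 ± 0.76 in DEX and 6.89 ± 0.74 in CAF+DEX, against 5.44 ± 0.56 in Control. Since both arms were chosen by their levels against Control, this ratio has no test either, and it rests on the few reads of miR-185-3p.

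**Figure D3:**
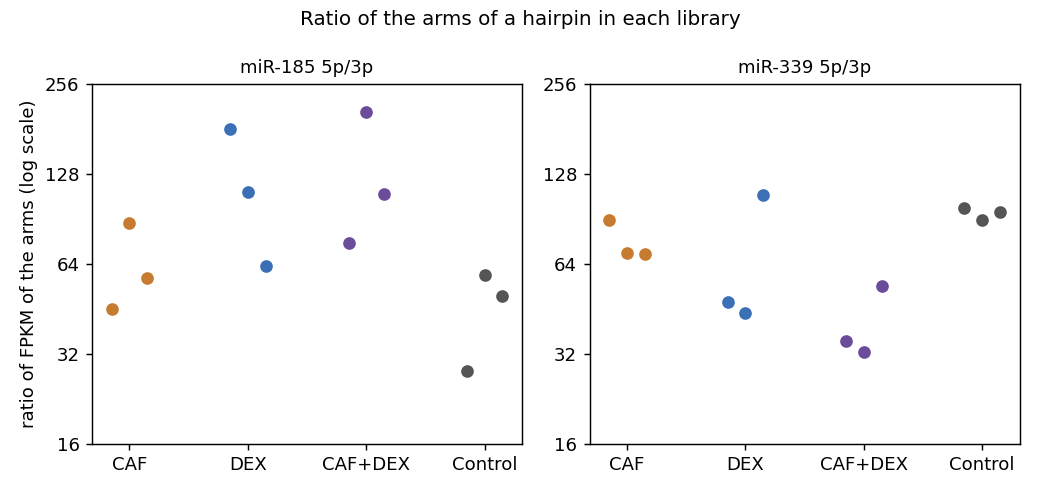
Ratio of the FPKM of the 5p arm to that of the 3p arm (y axis, log scale) of Mir185 (left) and Mir339 (right) in each library of CAF, DEX, CAF+DEX and Control (x axis). The Control points of Mir339 lie between 89.6 and 98.0 and its CAF+DEX points between 32.3 and 54.0, while the Mir185 ratio lies between 28.1 and 58.6 in Control and between 75.0 and 205.8 in CAF+DEX.

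Treated groups were compared with each other to show how the 4 microRNAs differed between the drugs and what the second drug added. These contrasts were not used in the choice, although they read the same treated libraries. All 4 had their lowest mean in CAF+DEX, so a choice for low treated values can by itself push contrasts of CAF+DEX below 0. The 3 contrasts also depend on each other, and miR-185-5p and miR-185-3p are arms of 1 hairpin. With limma 0 of the 12 values (4 microRNAs in 3 contrasts) passed, 3 of the 12 stood under 0.05 before adjustment, and 0 passed with voom on recovered reads. The number under 0.05 before adjustment was 0 with median-of-ratios scaling, with quantile normalization and without CAFDEX3. At most it was 5, without CAF4. Of all tested microRNAs 2.46% passed for DEX against CAF, 0% for CAF+DEX against CAF and 3.55% for CAF+DEX against DEX. For CAF+DEX against CAF 22 of the 366 stood under 0.05 before adjustment, and voom also passed 0. In 10 of the 12 values the log2 fold change was below 0, as it was for 41.5% of all tested microRNAs for DEX against CAF, 59.6% for CAF+DEX against CAF and 69.1% for CAF+DEX against DEX. All CAF+DEX libraries lay below all CAF libraries for 1 of the 4, miR-185-5p (7.38% of all tested), and below all DEX libraries for miR-652-3p and miR-185-5p (13.1%), and 0 of 4 had all DEX libraries below all CAF libraries (4.64%).

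Set against CAF, CAF+DEX had a log2 fold change for miR-339-5p of -0.76 ± 0.30 (SE, 3 libraries each, adjusted p = 0.786 by limma, 95% interval -1.40 to -0.12). miR-652-3p was at -0.85 ± 0.41 (adjusted p = 0.793, -1.72 to 0.02) in that contrast, and miR-185-3p at -1.14 ± 0.59 (adjusted p = 0.793, -2.39 to 0.12). miR-185-5p was at -0.37 ± 0.30 (adjusted p = 0.893, -1.01 to 0.27). For 3 of the 4 microRNAs the interval includes 0, and for all 4 it reaches below -1, a halving.

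Set against DEX, CAF+DEX had miR-652-3p at -0.92 ± 0.41 (SE, 3 libraries each, adjusted p = 0.280 by limma, 95% interval -1.79 to -0.06). miR-185-5p, whose CAF+DEX libraries all lay below the DEX libraries, was at -0.67 ± 0.30 (adjusted p = 0.287, -1.30 to -0.03). miR-339-5p was at -0.38 ± 0.30 (adjusted p = 0.566, -1.02 to 0.25) and miR-185-3p at -0.66 ± 0.59 (adjusted p = 0.611, -1.92 to 0.59). Without DEX2 and DEX3 the miR-185-3p value in this contrast was -0.086. The median of all tested microRNAs in this contrast was -0.24, and with median-of-ratios scaling miR-652-3p was at -0.68 and miR-185-5p at -0.42.

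DEX against CAF gave values of both signs. miR-339-5p was at -0.38 ± 0.30 (SE, 3 libraries each, adjusted p = 0.570 by limma, 95% interval -1.01 to 0.26) and miR-185-3p at -0.47 ± 0.59 (adjusted p = 0.741, -1.72 to 0.78). miR-185-5p was at 0.30 ± 0.30 (adjusted p = 0.667, -0.34 to 0.93) and miR-652-3p at 0.08 ± 0.41 (adjusted p = 0.975, -0.79 to 0.95). For miR-652-3p the value was -0.078 with median-of-ratios scaling and -0.25 without DEX2 and DEX3, and for miR-185-3p it was -1.05 without them.

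**Figure D4:**
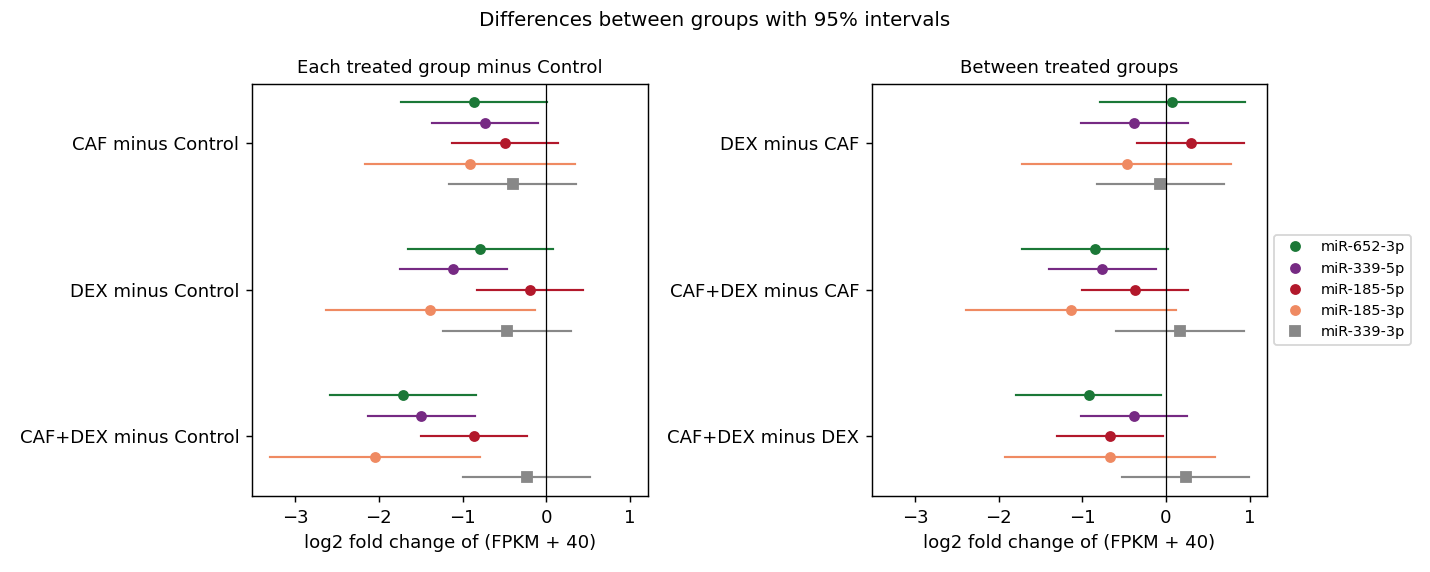
Log2 fold change of (FPKM + 40) (x axis) with 95% limma intervals (lines) for the 4 microRNAs (circles) and miR-339-3p (squares), n = 3 libraries per group, each treated group against Control (left) and treated groups against each other (right). The left panel is a description for the 4 microRNAs; in the right panel none passed after adjustment, and the intervals of miR-339-3p include 0 in each of the 6 comparisons.

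The 4 microRNAs varied between libraries of a group as well as between groups. In Control, ctrl1 was the highest and ctrl5 the lowest library for all 4 and also for miR-339-3p, by 1.65-fold for miR-339-5p, 2.03-fold for miR-652-3p, 2.26-fold for miR-185-5p and 4.0-fold for miR-185-3p. In CAF, CAF3 was the highest for all 4, and in CAF+DEX, CAFDEX3 was the lowest for all 4. In DEX the highest library was DEX3 for miR-652-3p, miR-185-5p and miR-185-3p and DEX1 for miR-339-5p. The coefficient of variation in CAF+DEX was 8.77% for miR-185-5p, 36.3% for miR-652-3p, 41.7% for miR-339-5p and 52.4% for miR-185-3p.

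Likeness of pattern was measured as Pearson's r of log2(FPKM + 40) over the 12 libraries, which share group, depth and scaling, and is a description. miR-652-3p was most like miR-20a-5p (r = 0.94), miR-185-3p (0.93), miR-92a-3p (0.89), miR-27a-5p (0.88) and miR-339-5p (0.87). miR-339-5p was most like miR-128-3p (r = 0.91), miR-92a-3p (0.91), miR-326-3p (0.90), miR-383-5p (0.89) and miR-421-3p (0.89). For miR-185-5p the 5 were miR-425-5p (r = 0.94), miR-20a-5p (0.93), miR-320-3p (0.90), miR-151-3p (0.89) and miR-92a-3p (0.89), and for miR-185-3p they were miR-652-3p (0.93), miR-18a-5p (0.90), miR-20a-5p (0.90), miR-17-5p (0.87) and miR-223-5p (0.85). Each of miR-20a-5p and miR-92a-3p stood among the 5 for 3 of the 4 microRNAs. Arms of 1 hairpin were not the closest pairs, since r was 0.81 between miR-185-5p and miR-185-3p and 0.44 between miR-339-5p and miR-339-3p. Taken within groups, as deviations from group means, r was 0.88 between miR-652-3p and miR-185-3p, 0.80 between the miR-185 arms and 0.42 between the miR-339 arms.

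**Figure D5:**
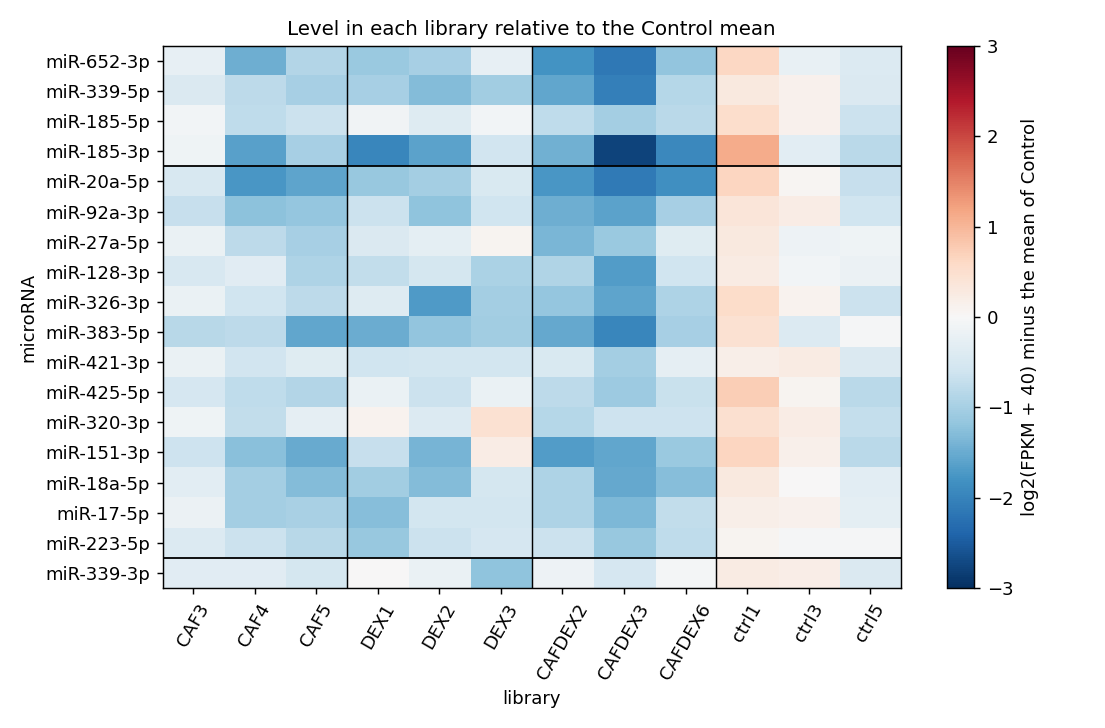
Log2(FPKM + 40) minus the Control mean (colour) of the 4 microRNAs (top), the microRNAs most like them (middle) and miR-339-3p (bottom) in each library (columns, ordered CAF, DEX, CAF+DEX and Control). Of the Control libraries ctrl1 is the highest for all 4, and CAFDEX3 is the lowest of all 12 libraries for each of them.

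miR-1306-5p, which the annotation places near Mir185 and which was named for its position after the data were seen, had a mean of 21760 ± 3430 FPKM in CAF (SD, n = 3), 19864 ± 6239 in DEX and 29370 ± 4197 in CAF+DEX, against 25106 ± 4715 in Control. It did not pass with limma in any comparison with Control, and its log2 fold change in CAF+DEX was 0.23 ± 0.27 (SE, adjusted p = 0.597). miR-1306-3p was at -0.71 ± 0.62 in CAF+DEX (adjusted p = 0.465).

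Markers of the blood cells that could supply these microRNAs were described as lists that do not hold the 4. Against Control, 25 of all 366 tested microRNAs rose and 4 fell in CAF. The counts were 42 and 2 in DEX and 24 and 16 in CAF+DEX. Of 10 tested erythrocyte microRNAs, 0 rose and 1 fell in CAF, 4 rose and 0 fell in DEX, and 1 rose and 1 fell in CAF+DEX, by limma against Control. Median log2 fold changes of this list were 0.18, 0.92 and 0.32 in CAF, DEX and CAF+DEX, beside 0.19, 0.47 and 0.24 for all tested microRNAs. Both arms of miR-451 were among the 4 that rose in DEX. The most abundant member, miR-16-5p, was at -0.07, 0.23 and 0.27 (SE 0.20) in CAF, DEX and CAF+DEX. Another abundant member, miR-25-3p, was at 0.16, 0.39 and 0.36 (SE 0.24), and neither passed with limma. The red-cell microRNA miR-451-5p rose in DEX by 1.79 ± 0.33 log2 units (SE, adjusted p = 0.00226) and in CAF+DEX by 1.12 ± 0.33 (adjusted p = 0.0441), while the member that fell in CAF and in CAF+DEX was miR-92a-3p (-1.02 ± 0.29, adjusted p = 0.0419, and -1.36 ± 0.29, adjusted p = 0.0132). Over the 24 alternatives the miR-92a-3p call was lost under 9 in CAF (highest adjusted p = 0.249), among them leaving out CAF4, CAF5, ctrl1 or ctrl3, and under 5 in CAF+DEX (highest 0.613), among them leaving out CAFDEX2, CAFDEX3, ctrl1 or ctrl3. In DEX the calls of miR-144-5p and miR-182 were lost under 12 each and that of miR-451-3p under 3. Among the alternatives was the red-cell index as a covariate. That index is built from miR-451-5p and moved with the groups, so calls lost under it cannot be read either way. The miR-451-5p call was lost under 15 in CAF+DEX and under 2 in DEX, which were the index as covariate and leaving out DEX2 and DEX3. Reads of miR-451-5p were few, at 72 to 96 per library in DEX and 38 to 139.5 in Control.

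Of 12 tested platelet and megakaryocyte microRNAs, 1 rose in CAF, 2 rose in DEX and 1 rose in CAF+DEX, and none fell. Of all 366 tested microRNAs 25, 42 and 24 rose. Over the 24 alternatives the call of miR-199a-3p was lost under 10 in CAF and 11 in DEX. The call of miR-222-3p in DEX was lost under 18 and that of miR-126a-3p in CAF+DEX under 14. Medians of the list were 0.14, 0.27 and 0.04 in CAF, DEX and CAF+DEX, beside 0.19, 0.47 and 0.24 for all tested microRNAs. The list took 34.1% to 44.2% of reads in CAF, 26.9% to 34.6% in DEX and 27.3% to 38.1% in CAF+DEX, against 42.8% to 47.9% in Control, most of it miR-191a-5p. miR-223-3p, abundant in platelets and myeloid cells, had log2 fold changes of -0.20 ± 0.22 in CAF (SE, adjusted p = 0.619), -0.66 ± 0.22 in DEX (adjusted p = 0.0572) and -0.22 ± 0.22 in CAF+DEX (adjusted p = 0.523).

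Of 17 tested leukocyte microRNAs, 2 rose in CAF, 1 rose in DEX, and 3 rose and 1 fell in CAF+DEX. Among all 366 tested microRNAs, 25 rose and 4 fell in CAF, 42 and 2 in DEX, and 24 and 16 in CAF+DEX. The 3 that rose in CAF+DEX were miR-150-5p, miR-146a-5p and miR-155-5p, known from lymphocytes and activated immune cells, and miR-223-5p, the passenger arm of a myeloid microRNA, fell by 0.86 ± 0.25 on the log2 scale (SE, adjusted p = 0.0441). That fall was lost under 12 of the 24 alternatives (highest adjusted p = 0.509), among them leaving out any single library of CAF or Control, CAFDEX2 or CAFDEX3. The calls of miR-150-5p and miR-146a-5p in CAF+DEX were lost under 1 each, the index as covariate, and that of miR-155-5p under 3, the index and leaving out CAFDEX2 or ctrl1. Since the index moved with the groups, its use as a covariate cannot separate index from group. In CAF the call of miR-146a-5p was lost under 12 and that of miR-150-5p under 5, and in DEX that of miR-181a-5p under 13. Medians of the leukocyte list were 0.03, 0.41 and 0.30 in CAF, DEX and CAF+DEX, beside 0.19, 0.47 and 0.24 for all tested microRNAs. Tissue lists had medians above those of all microRNAs: 1.0, 1.64 and 1.13 in CAF, DEX and CAF+DEX for 9 liver members, 2.96, 1.39 and 1.65 for 4 of striated muscle and 0.70, 2.15 and 0.51 for 13 of gut and kidney epithelium. Of these, 3, 6 and 3 liver members, 3, 1 and 2 muscle members and 1, 10 and 0 epithelium members rose in CAF, DEX and CAF+DEX, and none fell. The 10 epithelium members include both arms of miR-141, miR-200a and miR-200b, so they are not independent. Liver calls were lost under 1 to 18 of the 24 alternatives, the most for miR-101a-3p in DEX. Muscle calls were lost under 0 to 17 (miR-133a-3p in DEX) and epithelium calls under 1 to 20 (miR-203a-3p in DEX). The part of these lists in the levels of the 4 microRNAs was not tested.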

How the data were processed

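Small RNA from 200 uL of serum was made into libraries with the QIAseq miRNA kit, per the labels' protocols, with molecular indices in the reverse transcription primer. No source used here says whether they served to collapse reads. The authors deposited FPKM per mature microRNA, 1 column per library. The submitters' processing notes name DESeq2 1.20.0, STAR 2.7.10a, cutadapt 3.7, featureCounts, build rn6 and Subread 2.0.1, without the step of each. Column names give the group but not the sample, so libraries keep their column names.

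The 836 rows were summed to 752 names; 366 with a mean of at least 80 FPKM and above 0 in at least 3 libraries were tested. FPKM times length sums to the same total in each column, and all values fell on steps of 0.01 read (tolerance 0.0001 of a step), of which 65.4% to 75.0% per library were whole, which gave the library totals. log2(FPKM + 40) was fitted with limma 3.58.1 in R 4.3.3 in one model of all 4 groups with its trend option (degrees of freedom 8 residual, 7.58 prior). Tests are two-sided, with Benjamini-Hochberg adjustment over all tested microRNAs and a threshold of 0.05. The fold changes understate the change of low microRNAs. The fit was tested on simulated data. A planned permutation test of the miR-185 arm ratio is not reported, since both arms were chosen by their levels against Control, and arm ratios are given with no pseudocount. Python 3.11.15, scipy 1.17.1 and matplotlib 3.10.9 served for the rest.

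The named microRNAs are the 4, their opposite arms, the 5 most like each, some leading members of the lists and the neighbours of Mir185. For each list the rule was to name the 3 members with the highest mean level, and not all of these are named here. Outside that rule, miR-451-5p and the other microRNAs of the lists that passed and are named were named after their values were seen. The members and lists were chosen with earlier results of these data known.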

Additional observations from a re-analysis of the deposited data

How the results depend on the processing

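The values were recomputed with other pseudocounts, without the low-value filter, with other scalings, each table row on its own, other limma models, the red-cell index as a covariate and with libraries left out; leaving libraries out of the count of microRNAs wholly below Control was chosen after seeing the data. None of the 4 microRNAs passed in a contrast between treated groups under any of these, and miR-339-3p passed in no comparison with Control. No paired analysis was possible because the column names carry numbers other than those in the sample titles, so replicate numbers cannot be tied to libraries. Log2 fold changes against Control moved by more than the spread between libraries for miR-339-5p in DEX, to -1.52 with median-of-ratios scaling, -1.5 with quantile normalization and -0.50 with the index as covariate. The same held for miR-339-5p in CAF+DEX with the index (-1.0), for miR-652-3p in DEX with quantile normalization (-1.37) and for miR-185-5p in DEX with median-of-ratios scaling (-0.61). miR-185-5p in DEX turned to 0.0095 with the index and ranged from -0.52 to 0.068 (without ctrl1) with 1 library left out. For miR-339-3p, the value against Control turned to 0.18 in CAF+DEX and 0.041 in DEX with the index, and to 0.0018 in DEX without DEX2 and DEX3. Its value for DEX minus CAF turned to 0.015 with voom, 0.23 with the index and 0.40 without DEX2 and DEX3 (-0.30 to 0.30 with 1 library left out), and for CAF+DEX minus DEX to -0.24 without DEX2 and DEX3 (-0.13 to 0.47). For CAF+DEX minus DEX miR-339-5p turned to 0.054 with quantile normalization. For DEX minus CAF miR-652-3p turned to -0.078 with median-of-ratios scaling, -0.21 with quantile normalization, -0.080 without miR-191a-5p in the total and -0.25 without DEX2 and DEX3, and ranged from -0.22 to 0.38 with 1 library left out. The log2 arm ratio of miR-185, treated minus Control, was 2.06 in DEX without DEX2 and DEX3 and 0.71 in CAF+DEX with 4 times the pseudocount of 40 FPKM added to both arms; with 1 library left out it was 0.18 to 0.71 in CAF, 0.94 to 1.71 in DEX and 1.06 to 1.79 in CAF+DEX. The cause of these changes was not tested, and since the index moved with the groups, values with it as covariate cannot separate index from group. Over 24 alternatives the count of all microRNAs passing against Control was 29 in CAF (4 without ctrl3 to 65 with only the groups compared), 44 in DEX (1 with the index to 74 without DEX1) and 40 in CAF+DEX (1 with the index to 60 without DEX2 and DEX3). Between treated groups it was 9 for DEX minus CAF (0 with the index to 27 without DEX1), 0 in every one of them for CAF+DEX minus CAF and 13 for CAF+DEX minus DEX (0 without DEX2 and DEX3 to 24 without DEX1). Depth limits miR-185-3p and miR-652-5p, which had at most 5.33 and 1 reads in any CAF+DEX library.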
